A study of Mus musculus with 2 samples.

Results

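An intron of Sfmbt2 on mouse chromosome 2 holds a long run of related miRNA genes named Mir466, Mir467, Mir669 and Mir297. The members described here are the 59 genes with such a symbol that have a row in both count tables and lie inside Sfmbt2 on its strand, of 1973 genes in all. The samples were 2 microRNA-seq libraries from whole bladders of newborn mice (Mus musculus strain B6NCrl, postnatal, age 0 day), 1 bladder from each of 2 pups of the same pregnant female, called pup 1 and pup 2. The pups form 1 group with no treatment and no engineered allele named in the labels, and their sex was not collected. The libraries therefore show which members were measured in this tissue and how far the littermates differed, and they allow no comparison between conditions.

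MicroRNAs are cut from hairpin precursors and then pair with messenger RNAs through a short seed near their 5′ end, which lowers the output of those messenger RNAs. Sfmbt2 encodes a Polycomb group protein, and the gene is imprinted: in early embryos and in extraembryonic tissue it is expressed from the paternal copy. The miRNA cluster in its intron is found in rodents and is known for its activity in the placenta, where it is needed for normal placental growth. Its genes arose by repeated duplication, so many of the hairpins are near-identical.

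Mature sequences can be shown for relatives of the members outside the cluster. Of 69 genes of these 4 families with a row, 10 lie outside Sfmbt2. The RefSeq miRNA table for GRCm38.p6 gave a mature sequence for 8 of the 69, all among those 10 relatives. Each sequence below runs 5′ to 3′, with its seed (bases 2 to 8) in capitals.
Mir466i, chr13:17747552-17747573, plus strand: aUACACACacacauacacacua
Mir466q, chr3:28419988-28420007, plus strand: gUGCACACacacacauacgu
Mir466j, chr10:60960802-60960824, plus strand: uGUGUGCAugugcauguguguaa
Mir466k, chr3:85467396-85467418, plus strand: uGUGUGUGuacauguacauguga
Mir467f, chr11:69635419-69635439, minus strand: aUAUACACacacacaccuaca
Mir467g, chr5:34732872-34732892, minus strand: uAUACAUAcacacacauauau
Mir467h, chr9:115381898-115381919, plus strand: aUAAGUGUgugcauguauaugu
Mir669n, chr3:115979905-115979924, plus strand: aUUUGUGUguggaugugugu
Runs of alternating a and c, or of u and g, make up much of these sequences. In Mir466q, 15 of the 19 steps from a base to the next went between a and c or between u and g, and in Mir467g 10 of 20 did. The 8 seeds were all different. The hairpins of the members themselves had u-to-g or g-to-u steps at a median of 25.6% of positions, against 15.8% over all annotated genes in the tables. Their median content of g and c was 37.2%, against 51.0%.

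Pup 1 had 7460621 counts on the sense strand of the genes and pup 2 had 3636650. Levels are given as sense-strand counts per 1000000 sense-strand gene counts (CPM). With no count, a level of up to 0.402 CPM remains possible in pup 1, and of up to 0.825 CPM in the shallower pup 2, taking 3 counts as the limit; the upper ends of the two-sided exact 95% intervals are higher, at 0.494 and 1.01 CPM. Intervals and limits here cover only the error of counting reads, each taken as independent. Reads without molecular identifiers are not independent molecules, so the intervals may be too narrow. Reads that mapped to several places were listed apart from the genes, and made up 22.7% of all reads in pup 1 and 24.8% in pup 2. They were 92.4 times the counts of the whole cluster in pup 1 and 97.9 times in pup 2. How many of them came from the cluster was not measured, so every level below is a minimum for a gene whose reads also match elsewhere. The tissue label was checked against markers. The smooth muscle genes Mir143 and Mir145a summed to 53.7% ± 0.21 (SD, n = 2) of counts, and 4 epithelial genes (Mir200b, Mir200c, Mir205 and Mir429) to 1.25% ± 0.017. The endothelial gene Mir126a stood at 1.98% ± 0.019. Markers of liver and skeletal muscle were low but not absent. Mir122 of liver had 112 CPM in pup 1 and 31.6 in pup 2, and Mir206 of skeletal muscle had 11.1 and 6.87 CPM. The muscle genes Mir1a-1 and Mir133a-1 had 5 counts or fewer in each library, and Mir124a-1 and Mir9-2 of neurons had none. Both neuron hairpins share part of their sequence with other annotated miRNA genes, so their reads could be among those listed apart. Low or missing counts at such genes do not show that a cell type was absent.

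The cluster as a whole took 0.382% ± 0.012 (SD, n = 2) of the sense-strand counts, a summed level of 3816 ± 124.5 CPM. In pup 1 it held 27816 counts, or 0.373% with an exact 95% binomial interval of 0.368% to 0.377%. In pup 2 it held 14199 counts, or 0.390% with an interval of 0.384% to 0.397%. Few members carried this sum. Only 11 of the 59 were detected, that is, had at least 1 CPM and 3 counts in both libraries, and these 11 held 99.9% of the cluster's counts. Over all genes of the tables, 17.0% were detected by the same rule, against 18.6% of the members. The median member had 0 counts, as did the median of all genes. In a bulk tissue such as this, fewer cells of a type and less RNA per cell cannot be told apart.

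The genes of the Mir467 family led the cluster. Mir467d (ENSMUSG00000077021.2, chr2:10507630-10507714 on the plus strand of GRCm38) had 9273 counts in pup 1 and 4520 in pup 2. That was 1242.93 CPM in pup 1 and 1242.90 CPM in pup 2, so the pups were level for this gene, which ranked 58 of all genes by mean level. Mir467e (ENSMUSG00000076948.2, chr2:10505721-10505807) had 1008 CPM in pup 1 and 1058 CPM in pup 2. It lies upstream of Mir467d, with Mir466p between them, and was lower in both pups, by 1.23-fold in pup 1 and 1.17-fold in pup 2. Mir467c (ENSMUSG00000077049.2, chr2:10473931-10474027), which lies far upstream of the other two, had 638 CPM in pup 1 and 718 in pup 2. The order of these genes was the same in both pups and their levels did not overlap. Together with 11 further measured Mir467 genes the family held 77.4% ± 0.13 of the cluster's counts, at 2954 ± 91.5 CPM. All but 6 of those counts came from Mir467c, Mir467d and Mir467e: Mir467b had 4 counts in pup 1 and 1 in pup 2, Mir467a-1 had 1 count in pup 1, and the other 9 numbered Mir467a copies had none.

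The Mir669 family came next, with 22.1% ± 0.12 of the cluster's counts and 843.7 ± 32.3 CPM. It was also the family with the most detected genes, 6 of its 20. Mir669o (ENSMUSG00000077086.1, chr2:10514300-10514395) had 349 CPM in pup 1 and 383 CPM in pup 2. Mir669l (ENSMUSG00000076959.1, chr2:10468971-10469068) had 309 CPM in pup 1 and 319 CPM in pup 2, below Mir669o in both pups. These genes lie towards opposite ends of the cluster. Mir669c (ENSMUSG00000076118.1, chr2:10509296-10509404) had 130 CPM in pup 1 and 134 CPM in pup 2. From Mir669c the levels dropped to Mir669e (chr2:10467495-10467613), with 143 counts or 19.2 CPM in pup 1 and 64 counts or 17.6 CPM in pup 2. Mir669h (chr2:10518155-10518279), the last member along the intron, had 12.6 CPM in pup 1 and 11.8 CPM in pup 2. Mir669f (chr2:10467229-10467349) was at the edge of detection with 8 counts in pup 1 and 5 in pup 2, or 1.07 and 1.37 CPM.

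Of the 20 measured Mir466 genes, 1 was detected. Mir466n (chr2:10513741-10513834) had 100 counts or 13.4 CPM in pup 1 and 47 counts or 12.9 CPM in pup 2. Its exact 95% counting intervals, 10.9 to 16.3 CPM in pup 1 and 9.50 to 17.2 CPM in pup 2, overlapped those of Mir669h, 10.2 to 15.4 CPM and 8.56 to 15.9 CPM, so the order of these genes is not settled at this depth. Of the 5 Mir297 genes, Mir297a-2 (chr2:10472254-10472343) was the only one detected. It had 15 counts in pup 1 and 13 in pup 2, or 2.01 and 3.57 CPM. Its interval of 1.13 to 3.32 CPM in pup 1 overlapped that of Mir669f, 0.463 to 2.11 CPM, and so did the intervals in pup 2.

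**Figure D1:**
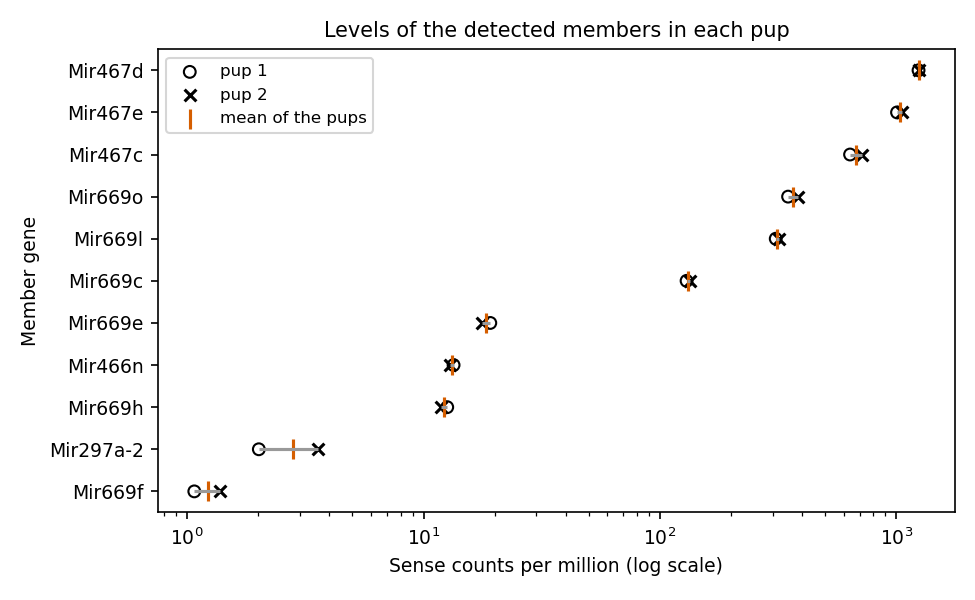
Levels of the 11 detected members on a log axis in CPM, with a circle for pup 1, a cross for pup 2, an orange bar for their mean and a grey line between the pups. The genes span from Mir669f near 1 CPM to Mir467d near 1243 CPM, and the distance between the pups is wide only for Mir297a-2 and Mir669f, which have 15 counts or fewer in each library.

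The 4 highest genes, Mir467d, Mir467e, Mir467c and Mir669o, made up 86.8% of the cluster's counts in pup 1 and 87.1% in pup 2. With Mir669l and Mir669c added, 6 genes made up 98.7% ± 0.075. The make-up of the cluster was thus nearly the same in both animals. Mir467d alone gave 33.3% of the cluster in pup 1 and 31.8% in pup 2, and Mir467e 27.0% and 27.1%. Mir467c gave 17.1% and 18.4%, and Mir669o 9.35% and 9.80%. By ratio, the widest step between neighbours in the order of detected levels lay between Mir669c and Mir669e, and below it the levels went down to the edge of detection. The 48 members not detected shared 36 counts over both libraries, 35 of them had no count in either, and none had a mean above 0.479 CPM. The closest to the minimum was Mir466b-3, with 1 count in pup 1 and 3 in pup 2, followed by Mir297b with 5 and 1. The counting intervals of Mir466b-3 overlapped those of Mir669f, the lowest detected gene, in both pups, so the minimum does not separate these genes.

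The members occupy 51617 bases, from 10466663 to 10518279 on chromosome 2, in an intron of 62472 bases (10461473 to 10523944). It is intron 10 of transcript Sfmbt2-201 and intron 11 of Sfmbt2-205, and no member overlapped an exon of Sfmbt2. Within this stretch the measured signal came from both ends and not from the middle. The middle is a tandem array from Mir467a-1 to Mir467a-10 (10476346 to 10503355), in which the Mir467a copies and Mir467b recur every 2413 to 2470 bases, with a median of 2452, over 9 of their 10 gaps. The 23 members in the array had 6 counts in all, and none was detected. The 15 members upstream of it held 26.6% ± 0.80 of the cluster's counts, with 5 detected, led by Mir467c. The 21 members downstream held 73.4% ± 0.79, with 6 detected, led by Mir467d. The boundaries of the array were set after its values had been seen.

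**Figure D2:**
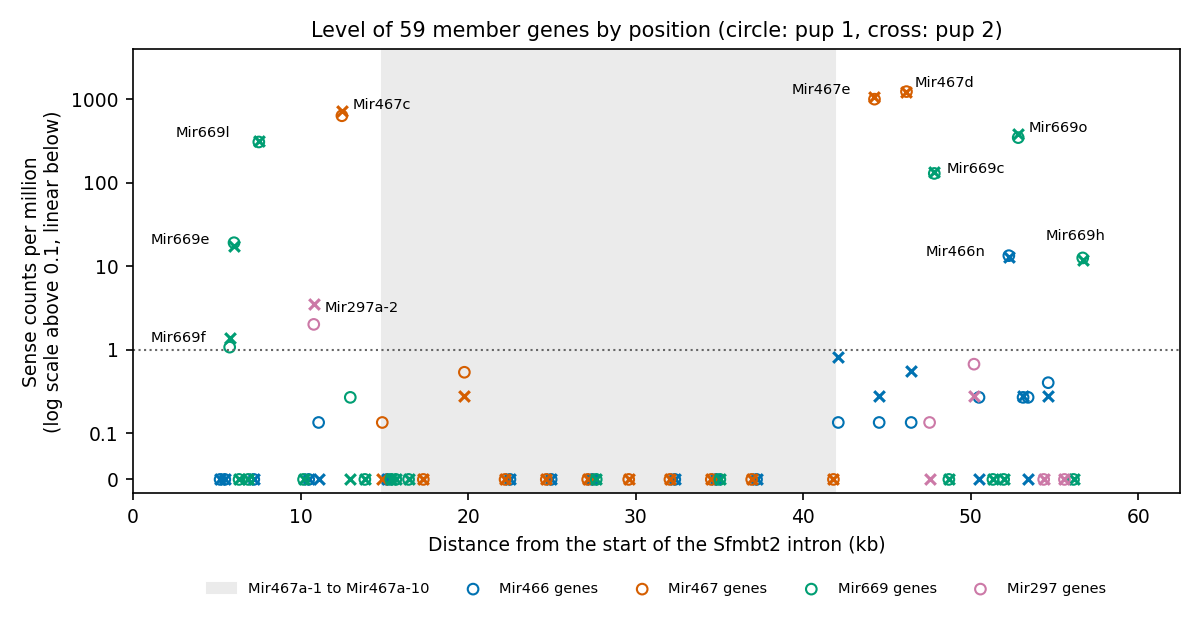
Level of each of the 59 members in CPM (log scale above 0.1, linear below) against distance in kb from the start of the intron, with circles for pup 1, crosses for pup 2 and colours for the 4 families. The dotted line marks 1 CPM, and in the grey band from Mir467a-1 to Mir467a-10 no gene reaches it, while genes above it stand on both sides of the band.

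Sequence that members share with other genes varied along with these levels, and its part in them was not tested. Each annotated hairpin was divided into overlapping windows of 20 bases, and the share of windows found in no other annotated miRNA gene was taken as its unshared sequence. The median was 29.9% for the members, against 98.9% for all 1894 genes with a value. For 20 members no window was unshared, and 19 of these lie in the tandem array. Those 20 genes had 1 count between them in both libraries, and 17 of them had a hairpin identical to that of another gene. The Mir467a copies show this most plainly: Mir467a-2, Mir467a-4, Mir467a-5, Mir467a-7, Mir467a-8 and Mir467a-9 each had 6 identical hairpins at other annotated genes and no count. Every detected member had at least 32.4% of its windows unshared, with a median of 52.0%. Of the 48 members not detected, 16 also lay above the lowest detected member. Over all 1894 genes with a value, 264 had no unshared window and 209 had a hairpin identical to that of another gene. Of the 335 genes detected over the tables, 5 had no unshared window.

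The order of the detected genes did not follow their unshared sequence. Mir467d, the highest member, had 37.9% of its windows unshared, while Mir467e had 57.4% and Mir467c 60.3%. Mir669o shared some window with 56 other genes, yet 50.6% of its windows were its own. Mir669e had 95% unshared windows and only 18.4 ± 1.11 CPM. Of the 48 members not detected, 5 had more unshared sequence than the median detected member. They were Mir466g with 100% and 2 counts in pup 1 and 1 in pup 2, Mir466h with 93.5% and 2 and 0 counts, Mir669b with 87.2% and no count, Mir466l with 85.3% and 3 and 1 counts, and Mir669i with 73.1% and no count. For these genes the low counts stood beside hairpins that mostly differ from every other annotated one. Across the 59 members the Spearman correlation of unshared share and mean level was 0.64. The points share the same libraries and many are copies of each other, so this is a description. The windows cover whole hairpins and not the mature arms, and matches outside annotated miRNA genes were not searched.

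**Figure D3:**
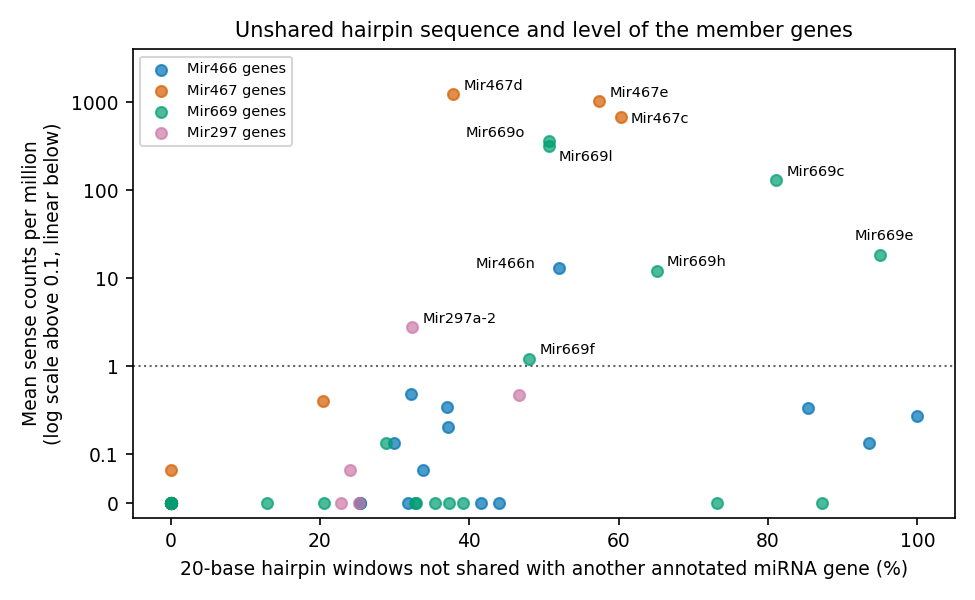
Mean level of the 59 members in CPM (log scale above 0.1, linear below) against the percentage of 20-base hairpin windows not shared with another annotated miRNA gene, coloured by family. The 20 members at 0% sit at or next to a level of 0, with 1 count in all. The detected members lie at 32.4% or more, without a steady rise among them, and 16 members not detected lie above 32.4% too.

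Outside the named families, 48 more miRNA genes with Gm symbols have a row and lie in the same intron on the same strand. None was detected, and together they had 17 counts in pup 1 and 5 in pup 2. The highest was Gm22072, which lies before the first member, with 7 counts in pup 1 and 1 in pup 2. A further 12 family genes that GENCODE M21 places in the intron, among them Mir466e and 9 Mir669a copies, were not analysed here. The 10 relatives on other chromosomes were near 0 too. Mir466q had 1 count in each library and the other 9 had none. The median unshared sequence of all 10 was 70.0%, above that of the detected members. The counts assigned to the analysed genes of these 4 families thus lay in the Sfmbt2 intron, apart from the 2 counts of Mir466q. Where reads that mapped to several places came from was not measured.

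All counts of the members lay on the strand of Sfmbt2. On the opposite strand there was no count at any member in either library, which allows up to 0.0108% of the cluster's counts in pup 1 and 0.0211% in pup 2. Over all genes the opposite strand held 3.17% of gene counts in pup 1 and 3.18% in pup 2. For scale against another imprinted miRNA region, the 53 plus-strand miRNA genes of chromosome 12 from Dlk1 to Dio3 reached a sum of 29142 ± 1997 CPM, and 43 of them were detected. Their median unshared sequence was 100%. The level of the Sfmbt2 transcript and the parental origin of the reads were not measured in these libraries.

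The littermates differed little in this cluster. With library sizes scaled by TMM, the summed counts were higher in pup 2 by a log2 ratio of 0.09 (counting SE 0.015). With DESeq2 size factors the ratio was 0.057, a move larger than that SE. Of the 11 members with at least 10 counts over both libraries, 8 were higher in pup 2 and 3 in pup 1 with TMM scaling. With DESeq2 size factors 7 were higher in pup 2 and 4 in pup 1, so the split depends on the scaling. The median log2 ratio of those members was 0.07 with TMM scaling, against 0.03 over all 362 genes tested. With DESeq2 size factors these medians were 0.036 and 0.0004. The median size of the ratio, regardless of sign, was 0.09, against 0.16 over all tested genes. The exact binomial test, two-sided and adjusted by Benjamini-Hochberg over the 362 genes, called 3 of the 11 members, beside 32.3% of all tested genes. The 3 members were all higher in pup 2, as were 69 of all 117 called genes. Among genes with at least 1000 counts over both libraries, it called 58.4% of 161 genes and 3 of 6 members. Mir467c had a log2 ratio of 0.19 (counting SE 0.035, adjusted p = 2.39e-07, exact test), the largest of the called ratios. For Mir669o it was 0.16 (counting SE 0.048, adjusted p = 0.00432, exact test) and for Mir467e 0.09 (counting SE 0.029, adjusted p = 0.00464, exact test).

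The other members did not pass, and among them Mir467d had a ratio of 0.02 with a 95% counting interval of -0.03 to 0.08. The widest ratio was that of Mir297a-2, 0.86, with an interval from -0.19 to 1.91 that rests on the 15 and 13 counts given above. The calls set a difference against the noise of counting reads in these libraries and concern no condition. edgeR's exact test was run with the common dispersion of the same libraries, a coefficient of variation of 13.2%. It called 1.38% of all tested genes and none of the 11 members, so it says nothing particular about them. No member had an unadjusted p under 0.05 in it. That dispersion was estimated with the pups as 1 group and counts their difference as noise, so this test could call few genes. With DESeq2 size factors Mir467e was not called (adjusted p = 0.0964 in the exact binomial test). Some blood cell markers moved between these libraries as well. Mir223, Mir451a, Mir144 and Mir150 gave 1071 CPM together in pup 1 and 2229 CPM in pup 2. Each was higher in pup 2, and the rise was largest for Mir223, at 396 CPM in pup 1 and 1274 in pup 2. Mir150 stood at 29.1 and 31.9 CPM. For blood genes outside this list, the log2 ratio was -0.10 for Mir155, 0.13 for Mir486 and 0.32 for Mir146. The part of blood cells in the ratios of the members was not tested.

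**Figure D4:**
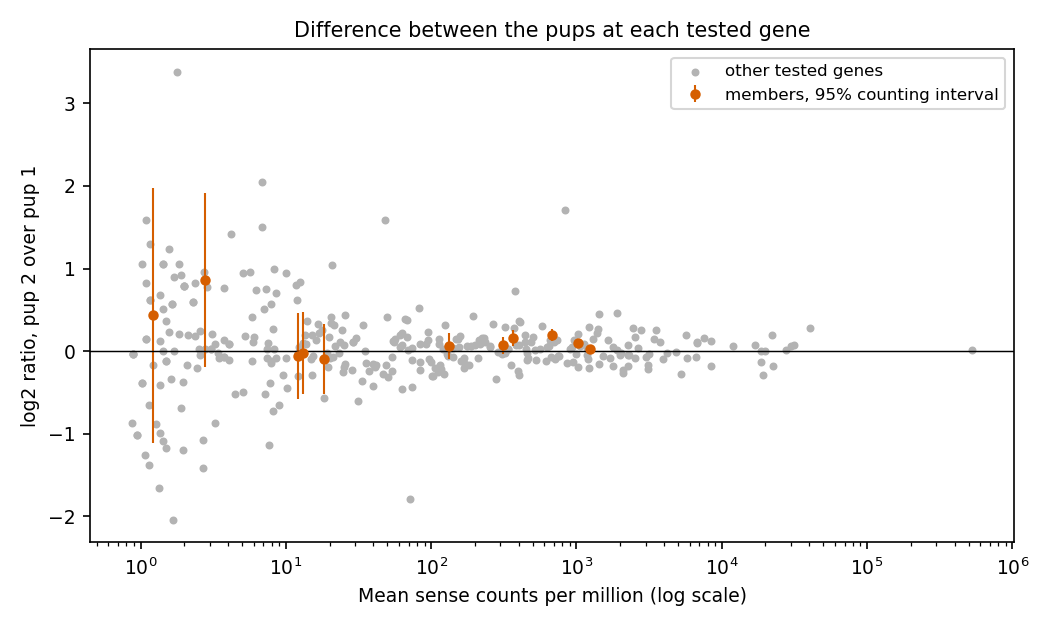
Log2 ratio of pup 2 over pup 1 against mean CPM (log axis) for the 362 tested genes, with the 11 members in orange and bars for their 95% counting intervals. Members above 100 CPM have ratios between 0.02 and 0.19, and the wide intervals belong to Mir669f and Mir297a-2.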

How the data were processed

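MicroRNA-seq of total RNA from newborn bladder gave 1 table per library. The authors deposited whole-number counts per miRNA gene, not normalized and not pooled, aligned to mm10 with GENCODE M4 genes per the deposited descriptions. Aligner, counter and filters: not given in the sources used here. Without a header, the columns were read from their values: column 1 of the counts is the sum of the others in every row, and the next, with nearly all counts, was taken as the sense strand. Lines for reads without a gene, 34.1% of reads in pup 1 and 35.2% in pup 2, stayed out of totals.

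Symbols and positions came from GENCODE M21 (GRCm38, the assembly mm10 names), matching 1894 of 1973 rows. Members and lists were chosen with earlier results of these data known. Every detected member is named, and others where they share sequence with one or where a count called for it. Those singled out for unshared sequence, for the order just under the minimum, and Gm22072 were named after their values were seen.

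Pups were compared by exact binomial test on TMM-scaled counts (edgeR 4.0.16, R 4.3.3), on genes with at least 10 counts summed, at an adjusted p of 0.05; log2 ratios carry a prior count of 0.5. The test was checked only on counts simulated with counting noise and no spread between animals, so its behaviour under such a spread was not checked. Alternatives were DESeq2 1.42.0 size factors, total count scaling, other minimums, both strands, edgeR's exact test and each pup left out. Python 3.11.15, pandas 2.3.3 and scipy 1.17.1 did the rest.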

Additional observations from a re-analysis of the deposited data

How the results depend on the processing

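The summed level of 3816 CPM was 3817 CPM with TMM sizes and 3695 CPM in counts of both strands, moves of less than 1 SD. With each pup left out it is the other pup's value, 3728 or 3904 CPM. With Mir143 left out of the totals it was 8031 CPM, because the total is then smaller. The number detected was 11 with either pup left out and in counts of both strands, 9 at a minimum of 10 CPM and 18 with any count in both libraries. The share of the 4 highest members ranged from 86.8% to 87.1% with each pup left out. The cluster's log2 ratio between pups of 0.09 became 0.057 with DESeq2 size factors and 0.12 without Mir467d. The count of 3 differing members was 2 with DESeq2 size factors and 3 with total count scaling, no filter, a minimum of 100 counts or both strands. It was 0 with edgeR's exact test, which called 1.38% of all tested genes and takes the spread between these same pups as noise. For single members, 59 of 64 ratios under these alternatives kept their direction and their side of the threshold, 4 were no longer called and 1 changed sign: Mir467d, at -0.0098 with DESeq2 size factors. Part of this agreement was fixed in advance. Other minimums left each member's ratio as it was, and counts of both strands changed only the scaling, as no member had an opposite-strand count. No paired analysis was possible because the samples form 1 group. Depth limits the 48 members not detected, and reads that mapped to several places limit all copies.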
